A study of Sus scrofa with 12 samples.

Results

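Collagen hydroxylases and lysyl oxidases are the enzymes that modify and crosslink collagen. In the endometrium of gestating sows, their RNA was examined for 10 genes, which were chosen by symbol from the 20674 genes of the deposited table. PLOD1, PLOD2 and PLOD3 encode lysyl hydroxylases, and LOX, LOXL1, LOXL2, LOXL3 and LOXL4 lysyl oxidases. P4HA1 and P4HA2 encode alpha subunits of prolyl 4-hydroxylase, and P4HA3 was not among the members. All 10 genes were present once in the table and passed the filter on low counts, which left 15351 genes in the test.

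Collagen chains are hydroxylated in the endoplasmic reticulum before they fold. Prolyl 4-hydroxylase makes hydroxyproline, which holds the folded helix together, and the lysyl hydroxylases make hydroxylysine, which can carry sugars and takes part in crosslinks. After secretion, the copper-dependent lysyl oxidases convert lysine and hydroxylysine side chains into aldehydes, from which the crosslinks of collagen and elastin form. In the uterus these steps belong to the remodeling of the stroma and its vessels. The study also measured metabolites and named hydroxylysine among them, and the metabolite values were not used here.

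The sows were Landrace × Yorkshire and received 1 of 4 diets from breeding over 114 days of gestation. The diet held 3.73% crude fiber (LF) in L − N and L + N and 7.46% (HF) in H − N and H + N. In L + N and H + N, 0.05% N-carbamylglutamate (NCG) was added, an analog of N-acetylglutamate that activates the synthesis of arginine. L − N and H − N received none. Each group had 3 libraries of poly(A) RNA, 12 in all, and whole endometrium was used, so fewer cells of a type and less RNA per cell cannot be told apart. The labels do not say that each library is 1 sow, so the p-values measure the spread between these numbered samples of a group, which may be technical.

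A library held 14369781 to 19309724 counts in total, and a member had between 45 and 3094 counts in a library. Levels within a gene are given as counts relative to library size (CPM) after TMM scaling, and levels between genes as the deposited FPKM, which also divides by gene length. A gene was called differentially expressed at an adjusted p under 0.05 and an absolute log2 fold change above 1 in edgeR's quasi-likelihood test, adjusted over all 15351 genes by Benjamini-Hochberg. Epithelial markers summed to 948 to 2150 CPM and stromal markers to 6040 to 10600 CPM over the libraries, so the markers of both main compartments of endometrium were present. Some libraries stood apart from the others of their group. In replicate 1 of L − N, smooth muscle markers summed to 5050 CPM against 1590 and 1980 CPM in the other two and 789 to 1540 CPM in the other groups. In the same library, macrophage markers summed to 711 CPM against 1930 and 1950 CPM.

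The 10 genes differed widely in level. Over the 12 libraries, the mean FPKM was 38 for P4HA1, 31.3 for LOX and 25.5 for PLOD1. A middle range from 18.8 to 20.4 FPKM held LOXL2, P4HA2, PLOD2 and PLOD3. LOXL3 had 7.98 FPKM, LOXL1 4.94 FPKM and LOXL4 2.35 FPKM. The spread between libraries was largest for the weakly expressed LOXL4, whose highest CPM was 9.06 times its lowest, and for LOXL2 with 8.62 times. For PLOD3 the ratio was 1.79 and for LOX 1.94.

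**Figure D1:**
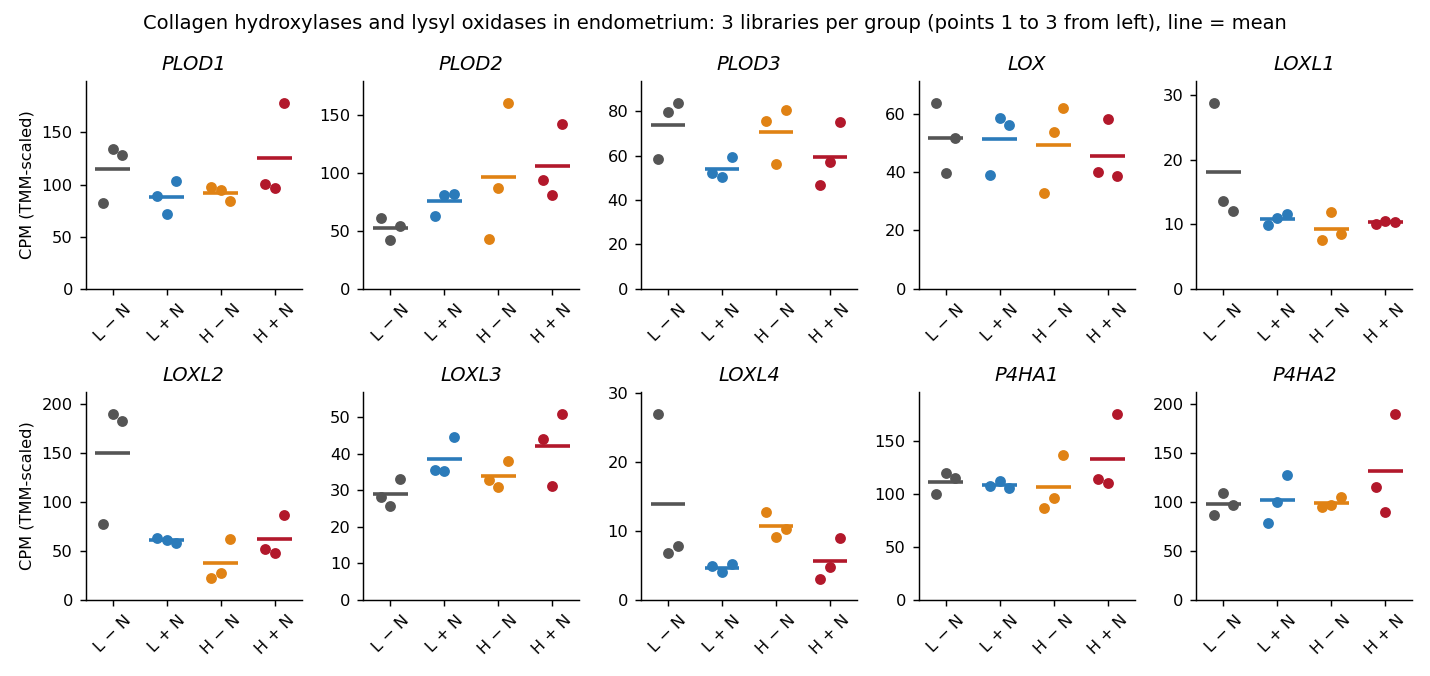
Level of each of the 10 genes in CPM (vertical axis, TMM-scaled) in the 4 dietary groups (horizontal axis), with 1 point per library and a line at the group mean. LOXL2 is highest in replicates 2 and 3 of L − N, at 190 and 183 CPM, and the highest PLOD2 value, 160 CPM, is in replicate 3 of H − N.

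In the comparison of H + N with L − N, which is the combination of both supplements against the basal diet, 0 of 10 members were differentially expressed, where 3.58% of all genes were. At an unadjusted p under 0.05 there were 5 members, 2 higher and 3 lower, against 27.5% of all genes, and DESeq2 called 1 member, LOXL2, and 6.45% of all genes. The members' median log2 fold change was −0.025 and that of all genes 0.017. LOXL2 was the 1 member of 10 that was differentially expressed when H − N was compared with L − N. It was lower there, where 2.91% of all genes were called and 2.01% were called lower, and 5.27% passed the adjusted p alone. At an unadjusted p under 0.05 there were 3 members, against 24.4% of all genes. In L + N against L − N, 0 of 10 members were called by edgeR and 2 by DESeq2, LOXL2 and LOXL4, where edgeR called 3.99% of all genes, 9.6% at the adjusted p alone, and DESeq2 5.88%. There, 5 members had an unadjusted p under 0.05, against 27.8% of all genes. These 3 comparisons share the L − N libraries.

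**Figure D2:**
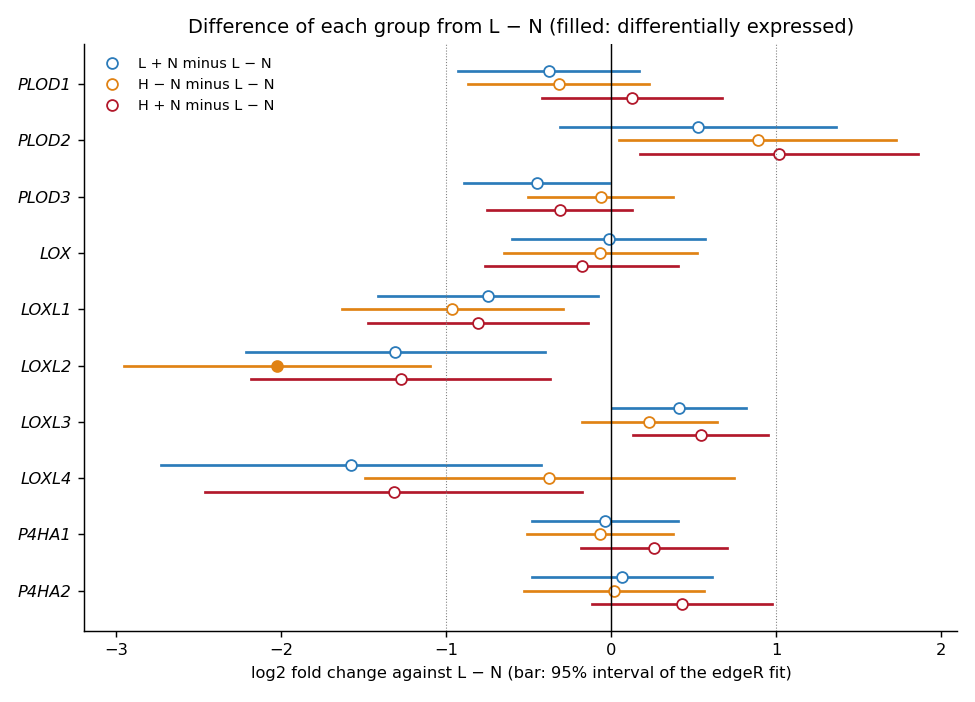
Log2 fold change (horizontal axis) of each of the 10 genes in L + N, H − N and H + N against L − N, with the 95% interval of the edgeR fit as a bar. The filled point is LOXL2 in H − N at −2.03, the only member called, and the intervals of LOX, PLOD1, P4HA1 and P4HA2 include 0 in every group.

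The lysyl hydroxylases are the source of hydroxylysine in collagen. None of the 3 members passed the test in any of the 9 comparisons. PLOD2 (gene 641354, chr13:86402673-86513167 of Sscrofa11.1, minus strand) is the form known for the lysines of the collagen telopeptides, which lead to the stable crosslinks of stiff tissue. In L − N, PLOD2 had 60.9, 41.9 and 53.9 CPM in replicates 1, 2 and 3. In L + N it had 63.2, 81.3 and 81.7 CPM. In H − N it had 42.9, 87.3 and 160 CPM, and in H + N 94.2, 80.8 and 142 CPM. Thus every library of L + N and of H + N lay above every library of L − N, whereas those of H − N overlapped with L − N. Among all genes, 18% had such a separation toward higher levels in L + N and 15.2% in H + N. The group means were 52.2 ± 9.57, 75.4 ± 10.6, 96.9 ± 59.4 and 106 ± 32.3 CPM (SD, n = 3 each) in the same order. In H + N relative to L − N, PLOD2 had a log2 fold change of 1.02 (SE 0.38, 95% interval 0.18 to 1.86, adjusted p = 0.114 in edgeR). For PLOD2 in H − N against L − N the log2 fold change was 0.89 (SE 0.38, adjusted p = 0.180), and without replicate 3 of H − N it was 0.32. In L + N it was 0.53 (SE 0.38, adjusted p = 0.395). The HF against LF difference of PLOD2, both high-fiber groups minus both low-fiber groups, was 0.69 on the log2 scale (SE 0.27, adjusted p = 0.194).

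PLOD1 (gene 100525583, chr6:71987938-72019712, plus strand) hydroxylates lysines in the helical part of fibrillar collagens. PLOD1 had 81.9, 134 and 128 CPM in L − N and 89.4, 72.2 and 103 CPM in L + N. In H − N it had 97.3, 94.5 and 84.3 CPM and in H + N 101, 97.0 and 178 CPM. All groups overlapped, and the highest value belonged to replicate 3 of H + N. In H + N against L − N, PLOD1 had a log2 fold change of 0.13 (SE 0.25, adjusted p = 0.783), which was −0.21 without replicate 3 of H + N and −0.07 without replicate 1 of L − N. PLOD3 (gene 100624420, chr3:8911787-8919525, minus strand) is the member that also transfers sugars onto hydroxylysine. PLOD3 was between 46.6 and 83.6 CPM over the 12 libraries. Its group means were 73.9 ± 13.6 CPM for L − N, 54.1 ± 4.87 CPM for L + N, 70.8 ± 12.8 CPM for H − N and 59.5 ± 14.4 CPM for H + N (SD, n = 3 each). Both groups with NCG thus had lower means than the groups without it. The NCG difference of PLOD3, both supplemented groups minus both unsupplemented groups, was −0.35 on the log2 scale (SE 0.14, 95% interval −0.66 to −0.04, adjusted p = 0.163).

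Within the family, the share of PLOD2 in the summed FPKM of the lysyl hydroxylases was 20.5 ± 6.66% on average for L − N, 32.3 ± 4.40% for L + N, 32.8 ± 14.1% for H − N and as much as 34.2 ± 2.37% for H + N (SD, n = 3 each). PLOD1 held the largest mean share in each group, from 35.3% in H − N to 44.7% in L − N. PLOD3 held 34.8% in L − N and 24.3% in H + N. In single libraries, the PLOD2 share was 15.0 to 27.9% in L − N, below the 28.6 to 37.1% of L + N and the 32 to 36.7% of H + N, whereas H − N spread from 18 to 46.1%. The summed FPKM of the family was 59.2 ± 7.08 FPKM for L − N, 57.7 ± 5.82 FPKM for L + N, 65.3 ± 10.5 FPKM for H − N and 72.3 ± 19.5 FPKM for H + N, so the means differed by less than the spread in H + N.

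**Figure D3:**
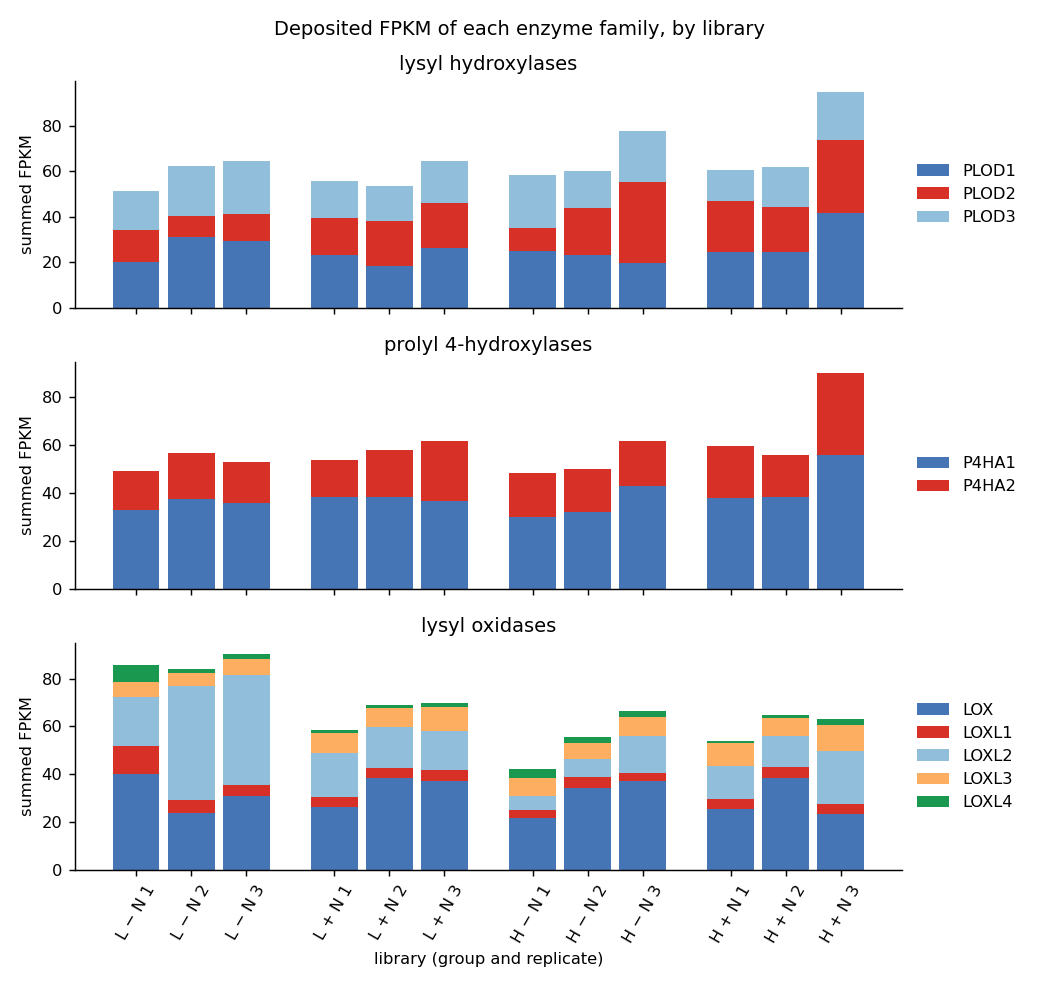
Deposited FPKM (vertical axis) of the members of each enzyme family, stacked by library (horizontal axis, group and replicate). The lysyl oxidases sum to 84.1 to 90.4 FPKM in L − N and to 42.1 to 69.7 FPKM in the other groups, with the LOXL2 segment carrying most of the visible difference in replicates 2 and 3 of L − N.

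Of the catalytic subunits of prolyl 4-hydroxylase, neither P4HA1 nor P4HA2 passed the test in any of the 9 comparisons. P4HA1 (gene 100037299, chr14:75827207-75919121, minus strand) had 99.8, 120 and 115 CPM in L − N, 108, 112 and 106 CPM in L + N, 86.4, 96.0 and 137 CPM in H − N and 114, 111 and 176 CPM in H + N. P4HA2 (gene 100623801, chr2:134502210-134595444, minus strand) had 87.0, 109 and 96.8 CPM in L − N, 78.2, 100 and 128 CPM in L + N, 94.8, 96.4 and 105 CPM in H − N and 115, 90.0 and 190 CPM in H + N. The highest library of both genes was replicate 3 of H + N, which was also the highest for PLOD1. H + N differed from L − N by a log2 fold change of 0.26 for P4HA1 (SE 0.20, adjusted p = 0.440). For P4HA2 it was 0.43 (SE 0.25, adjusted p = 0.286). Without replicate 3 of H + N these differences were 0.0072 for P4HA1 and 0.071 for P4HA2. P4HA1 held 64.6 to 66.8% of the summed FPKM of P4HA1 and P4HA2 on average in each group. P4HB, the beta subunit with which they assemble, had 379 ± 51.5 CPM in L − N and 412 ± 132 CPM in H + N, and its log2 fold change was 0.12 (adjusted p = 0.779).

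Among the lysyl oxidases, LOXL2 (gene 110256870, chr14:7435861-7540699, minus strand) is known for crosslinking the collagen of basement membranes. LOXL2 had 77.7, 190 and 183 CPM in replicates 1, 2 and 3 of L − N. In L + N it had 63.5, 61.4 and 57.6 CPM. In H − N it had 22.1, 27.1 and 61.9 CPM, and in H + N 52.1, 47.9 and 86.4 CPM. Every library of L + N and of H − N lay below every library of L − N, where 17.2% and 12.7% of all genes had such a separation toward lower levels, and only replicate 3 of H + N reached into the range of L − N. The group means were 150 ± 63.2, 60.8 ± 3.02, 37.0 ± 21.7 and 62.2 ± 21.1 CPM (SD, n = 3 each) in the same order.

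LOXL2 fell in H − N against L − N, with a log2 fold change of −2.03 (SE 0.42, 95% interval −2.95 to −1.10, adjusted p = 0.0279 in edgeR). The call was lost when either of replicates 2 and 3 of L − N or either of replicates 1 and 2 of H − N was left out, with log2 fold changes from −1.86 to −1.76 and adjusted p between 0.0745 and 0.107. It was also lost with only these 2 groups in the fit (−2.05, adjusted p = 0.115). It held with RLE scaling, with no filter and with the replicate block. DESeq2 also called LOXL2 there (−2.04, adjusted p = 5.71e-05), beside 913 genes called in all. For LOXL2 in L + N against L − N the log2 fold change was −1.31 (SE 0.41, adjusted p = 0.0681), and in H + N against L − N it was −1.28 (SE 0.41, adjusted p = 0.0744), neither of which passed the test. Without replicate 1 of L − N both passed it, at −1.62 (adjusted p = 0.0221) and −1.59 (adjusted p = 0.0251), where edgeR called 5.85% and 6.09% of all genes. The means stood in the order L − N, H + N, L + N and H − N, and the last 3 of these did not differ beyond their spread in the tests between them. With NCG, LOXL2 differed by −1.31 on the log2 scale on the low-fiber diet and by 0.75 on the high-fiber diet (H + N against H − N, SE 0.41, adjusted p = 0.625, 0.44 to 1.34 with 1 library left out), so the signs were opposite and neither difference passed the test. The signed difference between them, the interaction, was 2.06 (SE 0.58, 95% interval 0.78 to 3.33, adjusted p = 0.258). For this interaction, edgeR called 0 of 10 members and 0% of all genes, and DESeq2 called 1 member, LOXL2, and 1.3% of all genes. Without replicate 1 of L − N the LOXL2 interaction was 2.37 and passed the edgeR test (adjusted p = 0.0397), as did 2.22% of all genes.

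Markers of several cell types also differed between the groups. The summed CPM of the 5 macrophage markers (CD68, CD163, CSF1R, MRC1 and C1QA) ranged over 711 to 1950 CPM for L − N, over 545 to 812 CPM for L + N, over 354 to 528 CPM for H − N and over 556 to 697 CPM for H + N. Against L − N, edgeR called 4 of the 5 lower in H − N, 2 in H + N and 1 in L + N, and none of the 5 was at 0. DESeq2 called 5, 4 and 3 of them lower in the same order. Among all genes, edgeR called 2.91% in H − N, 3.58% in H + N and 3.99% in L + N. At the adjusted p alone it passed 5.27%, 7.97% and 9.6%, and these shares also apply to the marker counts that follow. Of the 6 stromal markers, 2 were called lower in H − N, VIM and THY1. The sum of all 6 was 8550 to 10600 CPM in L − N and 6040 to 7680 CPM in H − N. VIM was also called lower at the adjusted p in the other 2 groups. Within H − N and within H + N, replicate 3 had the most LOXL2 and the lowest macrophage sum, 354 and 556 CPM. In the other 2 groups it was the reverse: replicate 1 of L − N and replicate 3 of L + N had both the least LOXL2 and the lowest macrophage sum, 711 and 545 CPM. Of the 5 markers of dividing cells, 5 passed the test as higher in H + N, 5 in L + N and 1 in H − N against L − N, and their sum was 45.7 to 143 CPM in L − N, 254 to 350 CPM with both supplements, 270 to 384 CPM with NCG alone and 153 to 202 CPM with fiber alone. Of the 4 endothelial markers, PECAM1 and CDH5 were lower at the adjusted p in L + N and PECAM1 in H + N. The smooth muscle markers TAGLN and ACTA2 were lower in L + N, and the epithelial marker CDH1 was higher in H − N. None of the 3 leukocyte markers passed in these comparisons, and 1 had an unadjusted p under 0.05, in H − N. The part of these cell types in the LOXL2 difference was not tested. As a description over the 12 libraries, the genes whose log2 CPM followed LOXL2 most closely were CLDND1 (Pearson r = 0.951, Spearman rho = 0.93), DIO2 (r = 0.944, rho = 0.993) and ADGRE5 (r = 0.944, rho = 0.965). With the group means taken out, r was 0.928, 0.899 and 0.873, and without the 2 libraries farthest from the median LOXL2 level it was 0.896, 0.935 and 0.932. These genes were picked as the highest of all genes tested, and the points share libraries and diet groups. DIO2, which activates thyroid hormone, had 1650 CPM on average in L − N and 294 to 407 CPM in the other groups.

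LOXL1 (gene 100154899, chr7:59481410-59505161, minus strand) acts on elastin in the assembly of elastic fibers. LOXL1 had 28.7, 13.6 and 12 CPM in L − N, 9.85, 10.9 and 11.6 CPM in L + N, 7.51, 11.9 and 8.48 CPM in H − N and 10.1, 10.5 and 10.4 CPM in H + N. All 9 libraries of the other groups lay below those of L − N, although the nearest values were 11.9 and 12 CPM. Among all genes, 12.7% were separated toward lower levels in H + N, 12.7% in H − N and 17.2% in L + N. The share separated in all 3 at once was not counted, and the comparisons share the L − N libraries. LOXL1 had a log2 fold change of −0.96 in H − N (SE 0.31, adjusted p = 0.0881), −0.81 in H + N (SE 0.30, adjusted p = 0.114) and −0.75 in L + N (SE 0.30, adjusted p = 0.138), none of which passed the test. Without replicate 1 of L − N these values were −0.46, −0.31 and −0.25. In DESeq2, LOXL1 passed the adjusted p in H − N against L − N (−0.98, adjusted p = 0.0255), below the fold threshold of 1. LOXL4 (gene 100157207, chr14:109571942-109593408, minus strand), which like LOXL2 and LOXL3 carries scavenger receptor domains, was the weakest member. LOXL4 had 26.9, 6.77 and 7.72 CPM in L − N, 4.80, 3.96 and 5.10 CPM in L + N, 12.7, 9.02 and 10.2 CPM in H − N and 2.97, 4.67 and 8.95 CPM in H + N. It was lower in every library of H + N than in every library of H − N, where 5.13% of all genes were so separated, and higher in every library of H − N than in L + N, where 14.6% were. Its libraries of L + N also lay below those of L − N, where 17.2% of all genes were so separated. LOXL4 had a log2 fold change of −1.58 in that comparison (SE 0.52, adjusted p = 0.0817 in edgeR), and of −0.65 without replicate 1 of L − N. The NCG difference of LOXL4 was −1.26 on the log2 scale (SE 0.37, 95% interval −2.07 to −0.45, adjusted p = 0.0639), and without replicate 1 of L − N it was −0.80. The LOXL4 difference of H − N from L − N was −0.37 (SE 0.51, adjusted p = 0.697) and turned to 0.56 without that library. The excess of LOXL1 and LOXL4 in replicate 1 of L − N accompanied its high smooth muscle markers, whose part was not tested.

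LOX (gene 100525278, chr2:125595115-125607026, minus strand), the founding member of the family, had 63.6, 39.8 and 51.6 CPM in L − N, 38.9, 58.5 and 56.2 CPM in L + N, 32.7, 53.7 and 62.0 CPM in H − N and 40.0, 58.3 and 38.6 CPM in H + N. The groups overlapped fully, and LOX differed from L − N in H + N by a log2 fold change of −0.18 (SE 0.27, 95% interval −0.76 to 0.41, adjusted p = 0.711). LOXL3 (gene 100512652, chr3:68498114-68516829, plus strand) was the only lysyl oxidase with higher means outside L − N. LOXL3 had 28, 25.6 and 33 CPM in L − N, 35.6, 35.2 and 44.5 CPM in L + N, 32.9, 30.8 and 38.1 CPM in H − N and 44.1, 31.2 and 50.9 CPM in H + N. Its libraries of L + N lay above those of L − N, a separation that 18% of all genes had, while H − N and H + N overlapped with L − N. The log2 fold change of LOXL3 was 0.54 in H + N (SE 0.19, 95% interval 0.14 to 0.95, adjusted p = 0.0878) and 0.41 in L + N (SE 0.19, adjusted p = 0.175).

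In FPKM, the 5 lysyl oxidases summed to 86.8 ± 3.25 FPKM for L − N, 65.7 ± 6.25 FPKM for L + N, 54.8 ± 12.3 FPKM for H − N and 60.6 ± 5.69 FPKM for H + N (SD, n = 3 each), and no library of the other groups reached those of L − N. LOXL2 held 44.1 ± 17.6% of this sum for L − N, 26.2 ± 4.23% for L + N, 17.0 ± 5.61% for H − N and 27.2 ± 7.43% for H + N. In replicate 1 of L − N its share was 24.1%, within the range of L + N. LOX held 36.3% on the basal diet of L − N, 51.1% with NCG in L + N, 56.0% with fiber in H − N and 47.8% with both in H + N, so LOX was the leading lysyl oxidase by mean share in every group except L − N.

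**Figure D4:**
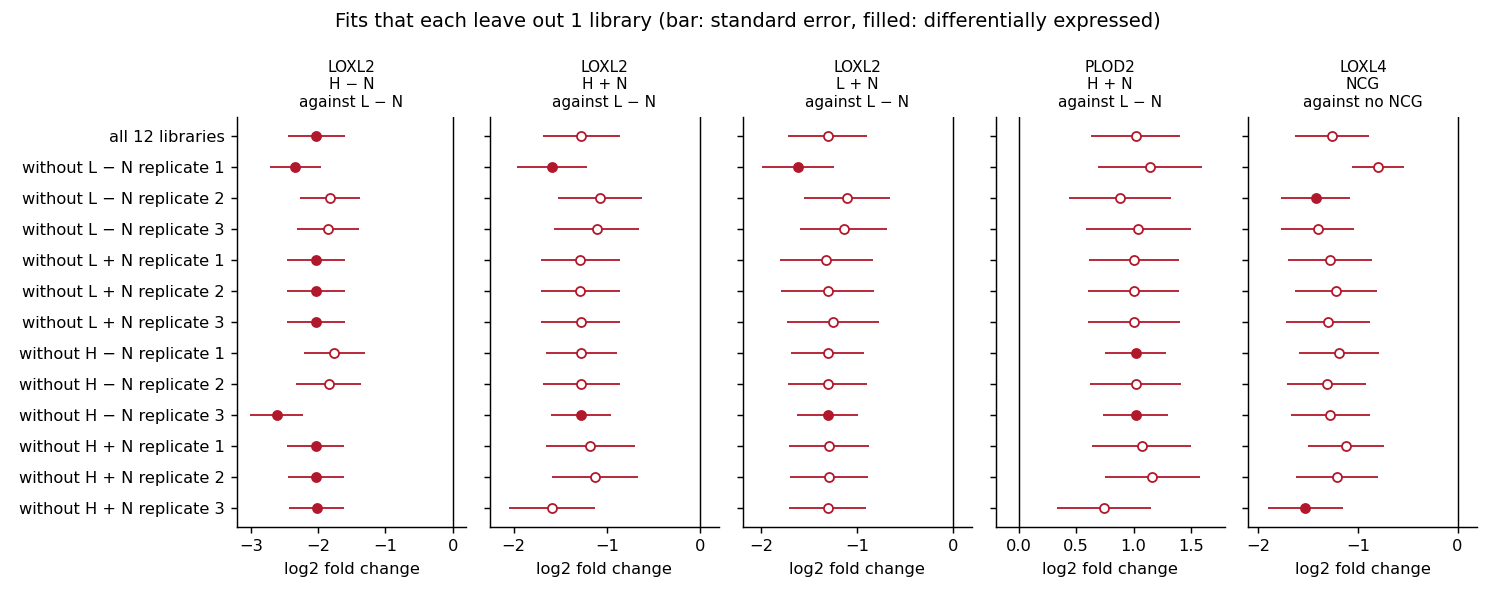
Log2 fold change (horizontal axis) of LOXL2 in 3 comparisons with L − N, of LOXL4 for NCG and of PLOD2 between H + N and L − N, with all 12 libraries and with each library left out in turn (vertical axis), with the standard error as a bar and filled points where the gene was called. LOXL2 in H − N against L − N stays between −2.61 and −1.76, and LOXL4 for NCG moves to −0.80 without replicate 1 of L − N.

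For the main effects, HF against LF called 0 of 10 members by edgeR and 1 by DESeq2, LOXL2, where edgeR called 0.0261% of all genes and DESeq2 1.89%. At an unadjusted p under 0.05 there were 3 members, against 19.5% of all genes. The HF difference was −1.0 on the log2 scale for LOXL2 (SE 0.29, adjusted p = 0.115) and −0.51 for LOXL1 (SE 0.21, adjusted p = 0.224). NCG against no NCG called 0 of 10 members by edgeR and 1 by DESeq2, LOXL4, where edgeR called 1.8% of all genes and DESeq2 2.36%, and 3 members had an unadjusted p under 0.05, against 23.6% of all genes. The NCG difference of LOXL3 was 0.36 on the log2 scale (SE 0.13, adjusted p = 0.123). In H + N against H − N and in H + N against L + N, 0 members were called by edgeR or DESeq2 and 0 had an unadjusted p under 0.05, against 8.67% and 4.68% of all genes. In H − N against L + N, 0 members were called by edgeR or DESeq2 and 1 had an unadjusted p under 0.05, LOXL4 with a log2 fold change of 1.20 (SE 0.52, adjusted p = 0.262), against 17.8% of all genes. In the interaction 2 members had an unadjusted p under 0.05, LOXL2 and PLOD1, against 12.8% of all genes.

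Partner genes of the pathway were described in 5 lists. Of 14 genes for the folding and modification of collagen in the endoplasmic reticulum, 0 passed an adjusted p under 0.05 in H + N against L − N by edgeR and 1 by DESeq2, P3H4, and 2 had an unadjusted p under 0.05. Among all genes, 7.97% passed the adjusted p by edgeR and 17.5% by DESeq2, and 27.5% had an unadjusted p under 0.05, so the shares of this list lay below those of all genes. Their median log2 fold change was 0.17 in H + N, 0.13 in H − N and −0.15 in L + N against L − N. P3H4, a partner of PLOD1 in the hydroxylation of helical lysines, had 32.7 ± 4.85 CPM in L − N and 63.7 ± 31.9 CPM in H + N (SD, n = 3), with a log2 fold change of 0.96 (adjusted p = 0.0756). FKBP10, an isomerase that works with PLOD2, had a log2 fold change of 0.63 (adjusted p = 0.170). COLGALT1, which adds galactose to hydroxylysine, had one of 0.14 (adjusted p = 0.719). Of 7 genes of procollagen processing, 0 passed by edgeR in H + N and 2 by DESeq2, ADAMTS2 and TLL2, which were also the 2 with an unadjusted p under 0.05, beside the same shares of all genes. ADAMTS2, which removes the amino-terminal propeptide, had 110 ± 12.5 CPM in L − N and 254 ± 109 CPM in H + N, with a log2 fold change of 1.21 (adjusted p = 0.0521).

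Among 13 substrate genes, FBLN5, a fibulin of elastic fibers that binds LOXL1, fell in each group against L − N. FBLN5 had 300 ± 43.3 CPM for L − N, 158 ± 6.20 CPM for L + N, 158 ± 44.8 CPM for H − N and 167 ± 29.0 CPM for H + N (SD, n = 3 each). The log2 fold change of FBLN5 was −0.92 in L + N (adjusted p = 0.0212), −0.93 in H − N (adjusted p = 0.0330) and −0.84 in H + N (adjusted p = 0.0346), below the fold threshold of 1. FBLN5 was the 1 gene of these 13 that passed the adjusted p by edgeR in each comparison, where 9.6%, 5.27% and 7.97% of all genes did. The fibrillar collagens had higher means that did not pass the test by edgeR. COL1A1 had 4960 ± 281 CPM in L − N and 10800 ± 4690 CPM in H + N, with a log2 fold change of 1.13 (adjusted p = 0.0886). COL3A1 had 10700 ± 1260 and 20200 ± 5510 CPM, with one of 0.92 (adjusted p = 0.0811). In this comparison COL1A1 and COL3A1 passed an adjusted p under 0.05 by DESeq2, as did 17.5% of all genes. The median of the list was 0.30 in H + N, 0.19 in H − N and 0.066 in L + N.

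Hydroxylysine is broken down by the kinase HYKK and the phospholyase PHYKPL. Of 6 genes of lysine and hydroxylysine breakdown, 0 passed by edgeR or DESeq2 and 0 had an unadjusted p under 0.05 in H + N, H − N or L + N against L − N, and the medians were 0.092, 0.095 and 0.082 in that order. HYKK had 13.3 ± 2.48 CPM in L − N and 14.0 ± 1.62 CPM in H + N, with a log2 fold change of 0.077 (95% interval −0.46 to 0.61). PHYKPL had 16.8 ± 1.13 and 18.1 ± 2.38 CPM, with one of 0.11 (95% interval −0.23 to 0.45). Differences within these intervals remained compatible with the data of 3 libraries per group, and the intervals are not a limit of detection.

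Some of the members, PLOD2, P4HA1 and LOX among them, are known as genes that respond to low oxygen. Of 13 other genes of the hypoxia response, 4 passed an adjusted p under 0.05 in H + N against L − N, where 7.97% of all genes did. VEGFA, the growth factor of vessels, rose by 1.59 on the log2 scale (SE 0.31, adjusted p = 0.0214), from 48.4 ± 5.57 CPM in L − N to 146 ± 72.1 CPM in H + N. Against this, the vasodilator peptide ADM had a log2 fold change of −1.75 (adjusted p = 0.0308), the pyruvate dehydrogenase kinase PDK1 one of −0.81 (adjusted p = 0.0151) and NDRG1 one of −0.70 (adjusted p = 0.0469). The median of the list was −0.42. In H − N, VEGFA rose, PDK1 and ADM fell and the median was −0.19, where 5.27% of all genes passed. In L + N, PDK1 and ADM fell and the median was −0.47, where 9.6% passed. By edgeR, genes of this list thus passed in both directions in H + N and H − N, with VEGFA alone higher. Only lower ones passed in L + N. By DESeq2, 1 gene passed as higher, VEGFA, and 5 as lower in H + N and likewise in L + N. In H + N, 17.5% of all genes passed by DESeq2.

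**Figure D5:**
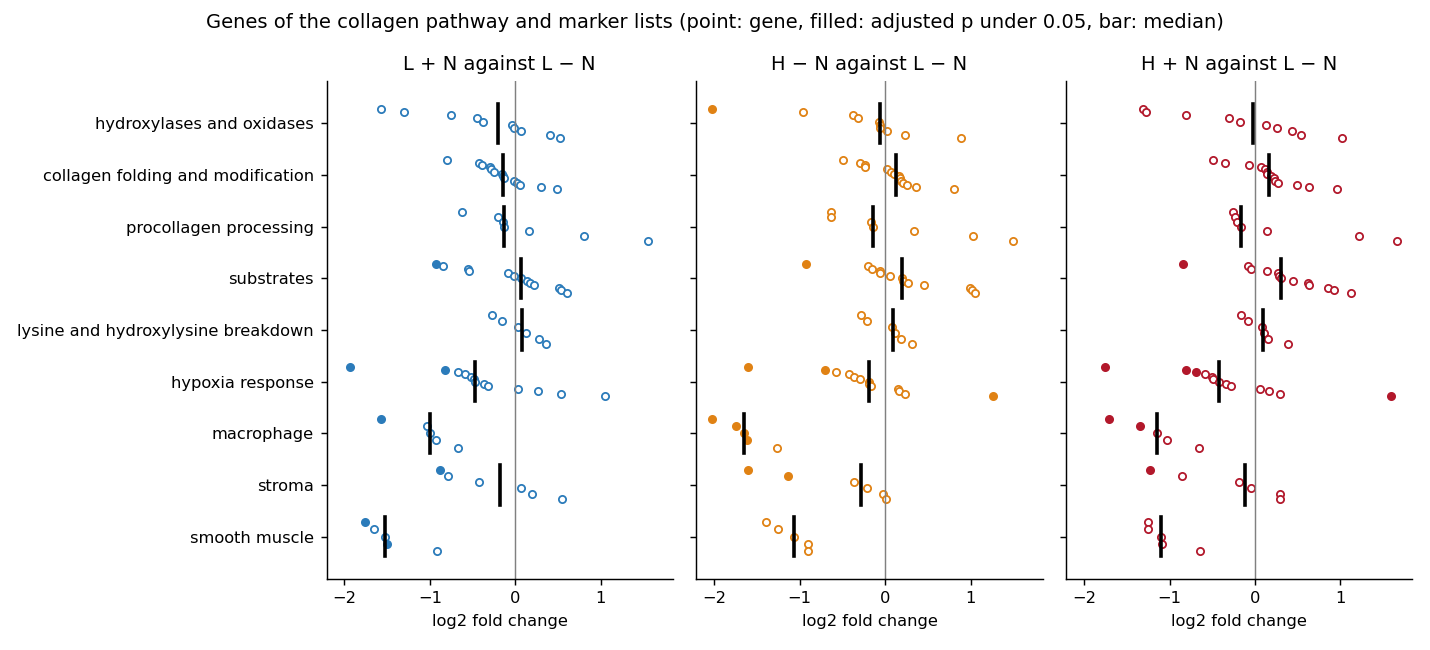
Log2 fold changes (horizontal axis) of the genes of the collagen pathway and marker lists (vertical axis) in each group against L − N, with 1 point per gene, filled points at an adjusted p under 0.05 and a bar at the median. The macrophage markers lie below 0 in all 3 panels, and the medians of the collagen lists, that of the hydroxylases and oxidases included, lie between −0.21 and 0.30.

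Across the 12 libraries, some members varied together. The highest correlation between members was that of P4HA1 with P4HA2 (Pearson r = 0.74, Spearman rho = 0.594), followed by LOXL3 with P4HA2 (r = 0.708), PLOD1 with P4HA2 (r = 0.706) and PLOD2 with LOXL3 (r = 0.684, rho = 0.685). These are descriptions, since the points share diet groups and replicate 3 of H + N is the highest for P4HA1, P4HA2, PLOD1 and LOXL3.

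Of the 10 genes, 5 overlapped no other gene of the table (PLOD1, PLOD2, LOXL1, LOXL2 and LOXL4). LOX lay with its whole span of 11912 bases inside LOC100525452 on the opposite strand, which had 24 to 246 counts per library. P4HA2 shared 14990 bases with PDLIM4, which had 122 to 261 counts, and PLOD3, LOXL3 and P4HA1 shared 653, 164 and 1066 bases with a neighbor. The counting strand is not given in the sources used here, so reads of these 5 genes and of their neighbors may not be separable.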

How the data were processed

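Endometrial poly(A) RNA of 12 libraries was assigned to the 4 diets by the letters of the deposited titles, read with the series' design text, since no label spells the code out. The authors deposited raw read counts per gene and FPKM values, which were recomputed from counts, gene length and library total to within 1.91e-05 percent. The submitters' processing notes name fastp 0.22.0, HISAT2 2.1.0, HTSeq 0.9.1 and Sscrofa11.1, while the paper describes strand-specific libraries. The counting strand is not given in the sources used here.

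Counts were analyzed in R 4.3.3 with edgeR 4.0.16 (TMM, filterByExpr, quasi-likelihood test, 1 mean per group, 8 residual degrees of freedom). The log2 CPM values used a prior count of 2, and log2 fold changes and 95% intervals came from the fit. DESeq2 1.42.0, RLE scaling, no filter, a replicate block, fits of 2 groups and leaving out each library were alternatives. Pairs of replicates differed by a mean chi-square of 23.3 to 99.8 over the genes, with a biological coefficient of variation of 0.269, so the spread between replicates exceeded counting error. Overlap of groups was counted on CPM.

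The members and gene lists were chosen with earlier results of these data known. Named are all members, up to 4 genes per list with the smallest adjusted p in H + N against L − N, HF or NCG, always P4HB, COLGALT1, PHYKPL, HYKK, COL1A1 and VEGFA, and the 3 genes most correlated with a member that passed. PCOLCE and AADAT had at most 2 counts and were not tested, and COL6A1 was not analyzed here. The method was tested on simulated data. No sequence is shown.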

Additional observations from a re-analysis of the deposited data

How the results depend on the processing

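Of 502 values recomputed for 30 member differences, 477 kept their direction and side of the threshold, 17 newly passed, 5 no longer passed and 3 reversed. The reversals were PLOD1 in H + N against L − N (−0.21 without replicate 3 of H + N and −0.07 without replicate 1 of L − N, in a range up to 0.27) and LOXL4 in H − N against L − N (from −0.70 to 0.56, the latter without replicate 1 of L − N). Leaving out each library in turn gave 0 to 2 members called in H + N against L − N, where PLOD2 was called without replicate 1 or 3 of H − N, and 0 to 1 in H − N and in L + N against L − N, HF, NCG and the interaction. By DESeq2, 1 member was called in H + N against L − N, 1 in H − N against L − N (LOXL2, as in edgeR), 2 in L + N against L − N and 1 each for HF, NCG and the interaction. With only 2 groups in the fit, 0 members were called in H − N and 1, LOXL2, in L + N against L − N (−1.30, adjusted p = 0.0479). RLE scaling and no filter changed none of the member counts. The lowest member count was 45, for LOXL4, and the effect of depth was not tested.

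The replicate numbers gave no clear pairing of the samples, although 3 libraries per group cannot exclude one. After the group mean of each gene was taken out of its log2 CPM, libraries with the same number correlated between −0.322 and 0.283. Among the libraries of other groups, 3 of 12 correlated best with a library of their own number. With the replicate block, LOXL2 in H − N against L − N was −2.08 (adjusted p = 0.0340), 1 member was called there and 0 in the other comparisons, as without the block.

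Over all genes, the counts called depended more on the setting. In H + N against L − N, 549 genes were called, 1223 at adjusted p alone, 988 by DESeq2, 87 with only 2 groups and 1 to 948 with 1 library left out. In H − N against L − N, 446 were called, 809 at adjusted p alone, 913 by DESeq2, 3 with only 2 groups, 254 with the block and 0 to 1120 with 1 library left out. In L + N against L − N, 613 were called, 1474 at adjusted p alone and 143 to 911 with 1 library left out. HF called 4 genes, 8 at adjusted p alone, 290 by DESeq2, 1 with the block and 0 to 331 with 1 library left out. NCG called 276, 1116 at adjusted p alone and 157 to 340 with 1 library left out. The remaining comparisons called 0, and DESeq2 called 275 in H − N against L + N, 25 in H + N against H − N, 2 in H + N against L + N and 184 for the interaction, which had 0 to 346 with 1 library left out. The causes were not tested.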
